A study of Mus musculus with 6 samples.

Results

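The 10 genes described here encode proteins that work beside Smad2 and Smad3 in the nucleus or that restrain them, and were taken by symbol from the 24288 gene symbols of the deposited expression table. They are the DNA-binding partner Foxh1, the corepressors Ski, Skil, Tgif1 and Tgif2, the ubiquitin ligases Smurf1, Smurf2 and Trim33, and the membrane proteins Pmepa1 and Ldlrad4. Where a symbol had several rows, the row with the highest total was used. Of the 24288 symbols, 17038 passed the expression filter, and each of the 10 genes did.

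The cells were mouse 129/Sv//Ev epiblast-like cells (EpiLCs), a culture model of the epiblast just after implantation. Embryonic stem cells had been held in medium with LIF and the inhibitors PD0325091 and CHIR99021, and then passed 2 days in 20 ng/ml activin A and 12 ng/ml Fgf2, so both genotypes met the same Smad2/3-activating ligand. The wild-type (WT) group was the CCE line (n = 3). The double-knockout (DKO) group was clone KT15.1F6 (n = 3), made by removing the first exon of Smad3 with a Cas9 nickase from cells homozygous for a Smad2 mutant allele. Each group was 1 line differentiated 3 times, so p-values measure the spread between differentiations, and effects of the line cannot be told apart from those of the knockout.

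In Nodal and activin signaling, activated receptors phosphorylate Smad2 and Smad3, which join Smad4 and enter the nucleus. Smads bind DNA weakly and rely on partners such as the forkhead factor Foxh1, while Ski, Skil and the Tgif homeodomain proteins bring corepressors to the complex. Several inhibitors of the pathway are themselves switched on by Smad2/3, among them Skil, Pmepa1, Smad7 and the Lefty ligands. This negative feedback limits the signal in the epiblast.

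The targeted genes were examined first. Smad3 measured 799, 846 and 873 normalized reads in WT and 21.5, 30.5 and 18.7 in DKO, so the DKO libraries held 2.81% of the WT level. Smad2 measured 4520 ± 86.3 in WT and 5062 ± 109 in DKO (SD, n = 3 each), which checks nothing about its mutant allele because reads were counted over the whole gene. Normalized reads are reads divided by 1 size factor per library. Reads recovered from 1 row per gene symbol, with duplicates dropped, came to 57644143 to 63046034 per library, which is not the sequencing depth. The epiblast markers Dnmt3b, Pou5f1, Otx2, Pou3f1 and Fgf5 were present in every library, and 2 of the 5 were lower in DKO (Fgf5 and Pou3f1). By the same rule, given below, 7.98% of all tested entries were lower and 7.41% higher. Markers of other cells moved in both directions. The summed level of 11 fibroblast markers was 2375 to 2489 in WT and 1485 to 1665 in DKO, of which Dcn alone gave 1330 ± 51.3 and 300.4 ± 16.9. Without Dcn the sum was 1084 to 1101 in WT and 1182 to 1349 in DKO, with Col5a1 at 658 ± 14.8 and 937 ± 58.2. Of 8 fibroblast markers tested, 2 were lower (Dcn and Col1a2) and 0 higher, and the median log2 fold change was 0.01. Postn was at 0 in each WT library and Lum was at or under 5.69 in all 6. The sum of 6 extra-embryonic endoderm markers was 60.2 to 90.7 in WT and 88.8 to 105 in DKO, so the ranges overlapped. Of 5 tested, 1 (Gata6) was higher and 0 lower, with a median log2 fold change of -0.29 and Sox17 at the low end with -0.58 ± 0.31. The part of these shifts in the results below was not tested. In bulk samples, fewer cells that express a gene and less RNA per cell cannot be told apart.

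The genes split into a set that fell in DKO and a set that held. Pmepa1, Ski, Ldlrad4 and Skil fell, whereas Foxh1, Tgif1, Tgif2, Smurf1, Smurf2 and Trim33 stayed within 1.5-fold of WT. The call needed an adjusted p under 0.05 from limma (Benjamini-Hochberg method) together with a fold change above 1.5. By this rule 4 of the 10 genes were lower and 0 were higher, beside 15.4% of all 25361 tested entries (rows of the table, several for some genes) changed, 7.98% lower and 7.41% higher. At an adjusted p alone all 10 passed, 6 lower and 4 higher, as did 55.1% of all entries, and in all 10 the WT values did not overlap the DKO values, as in 60.3% of all entries. The split therefore rests on the size of the change. The median log2 fold change was -0.11 over the 10 genes and 0.00 over all genes tested.

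**Figure D1:**
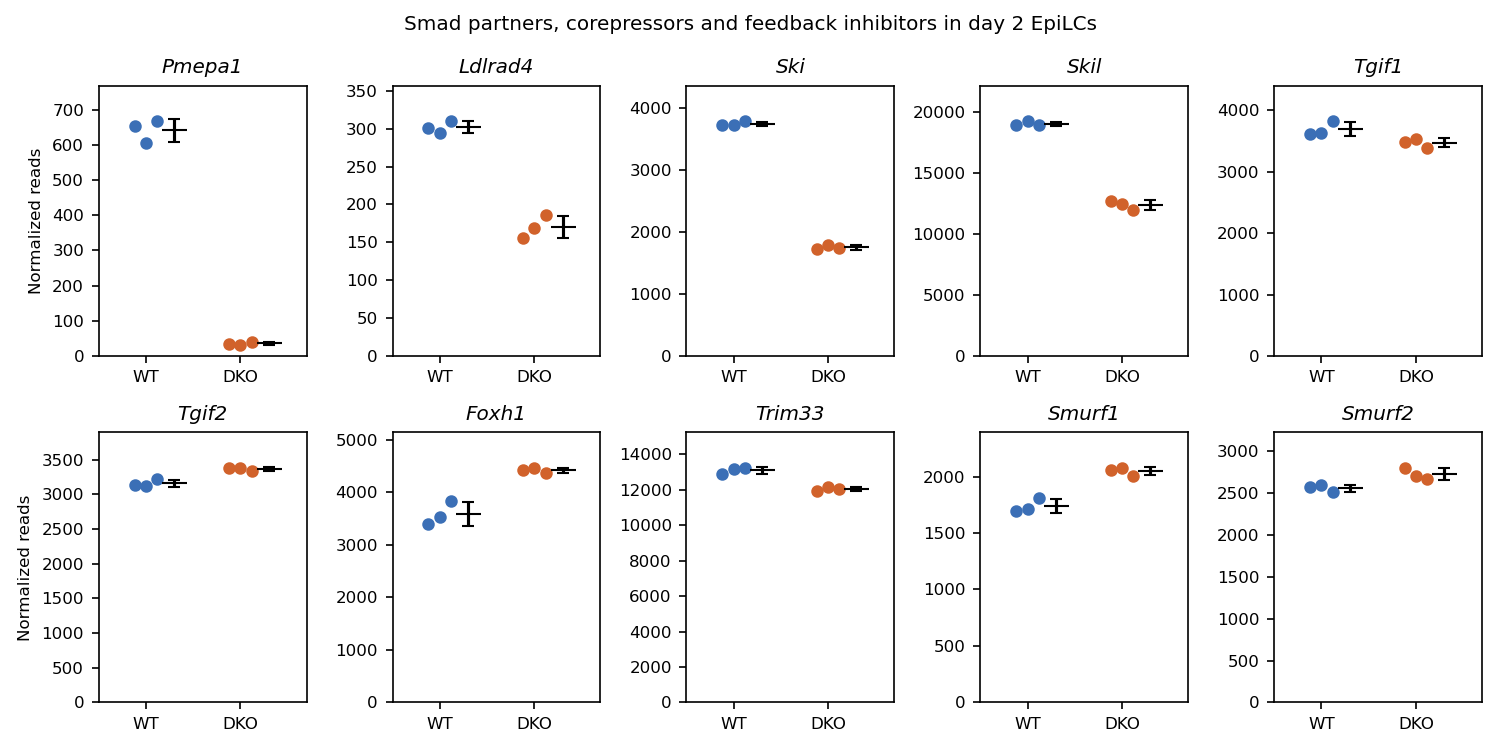
Normalized reads (y axis, linear, from 0) of the 10 genes in each of the 3 WT and 3 DKO libraries; points are libraries, and the bar beside them gives the mean and SD. Pmepa1 is close to the axis in DKO at 31.5 to 40.4, Ski, Ldlrad4 and Skil sit well below WT, and the other 6 genes lie near their WT level.

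The membrane-bound inhibitors both fell, by very different amounts. Pmepa1 (NM_022995, chromosome 2, 173224458 to 173276731, minus strand, GRCm38.p6, the mm10 assembly) encodes a protein that captures Smad2 and Smad3 away from the receptor. Positions here and below are those of the whole RefSeq gene, and the body counted for the named row may differ. Pmepa1 measured 653, 606 and 668 normalized reads in the WT libraries and 34.4, 31.5 and 40.4 in the DKO libraries. Every DKO library was far below every WT library, and the remainder was 5.52% of WT, an 18.1-fold difference. The log2 fold change was -4.15 ± 0.10 (SE, limma, adjusted p = 6.78e-23). Only 10 of the 17038 genes tested had a more negative value. The DKO level rests on 60 to 78 reads per library, and its coefficient of variation of 12.8% was the largest of the 10 genes in either group.

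Ldlrad4 (NM_172631, chromosome 18, 67932274 to 68260550, plus strand), a relative of Pmepa1 that also binds Smad2 and Smad3, was the least abundant of the set in WT per kilobase of gene. Its normalized reads were 301, 294 and 310 in WT and 156, 169 and 186 in DKO. The groups were separate, and DKO cells kept 56.4% of the WT level. On the log2 scale the change was -0.83 ± 0.08 (SE, limma, adjusted p = 2.03e-09), and its 95% interval ended at -0.66, beyond the 1.5-fold line. Against a null of 1.5-fold instead of no change, Ldlrad4 narrowly missed (limma treat, adjusted p = 0.0546). The RefSeq gene spans 328 kb, mostly intron, and Fam210a on the opposite strand shares 0.376 kb with it. Fam210a itself measured 2419 ± 27.4 and 2512 ± 115 normalized reads, with limma giving a log2 fold change of 0.05 ± 0.03 (adjusted p = 0.196).

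Among the corepressors, the Ski family fell and the Tgif family held. Ski (NM_011385, chromosome 4, 155154075 to 155222535, minus strand) encodes a protein that binds Smad complexes and recruits histone deacetylases. Its normalized reads were 3714, 3724 and 3780 in WT and 1716, 1788 and 1742 in DKO. Replicates hardly varied, with coefficients of variation of 0.959% and 2.10%, and DKO cells kept 46.8% of the WT level. The log2 fold change was -1.10 ± 0.03 (limma, adjusted p = 1.59e-21), and Ski also passed the test against 1.5-fold (adjusted p = 1.44e-13).

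Skil, which encodes the Ski-related protein SnoN and is a textbook target of TGF-beta and activin, had the highest group mean of reads among the 10 genes in both genotypes, although in DKO its libraries overlapped those of Trim33. Its row (NM_011386, gene at chromosome 3, 31095058 to 31122923, plus strand) held 18923, 19214 and 18866 normalized reads in WT and 12662, 12463 and 11917 in DKO. The DKO libraries lay below the WT libraries but kept 65.0% of the level, so most of the Skil RNA was still present. The log2 fold change of -0.62 ± 0.02 (limma, adjusted p = 2.32e-18) lay close to the threshold of 0.585 on this scale, and its 95% interval, -0.67 to -0.57, crossed that line. In the test against 1.5-fold, Skil had an adjusted p of 0.686. Only Pmepa1 and Ski of the 10 genes passed it, beside 3.54% of all entries that passed as lower.

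**Figure D2:**
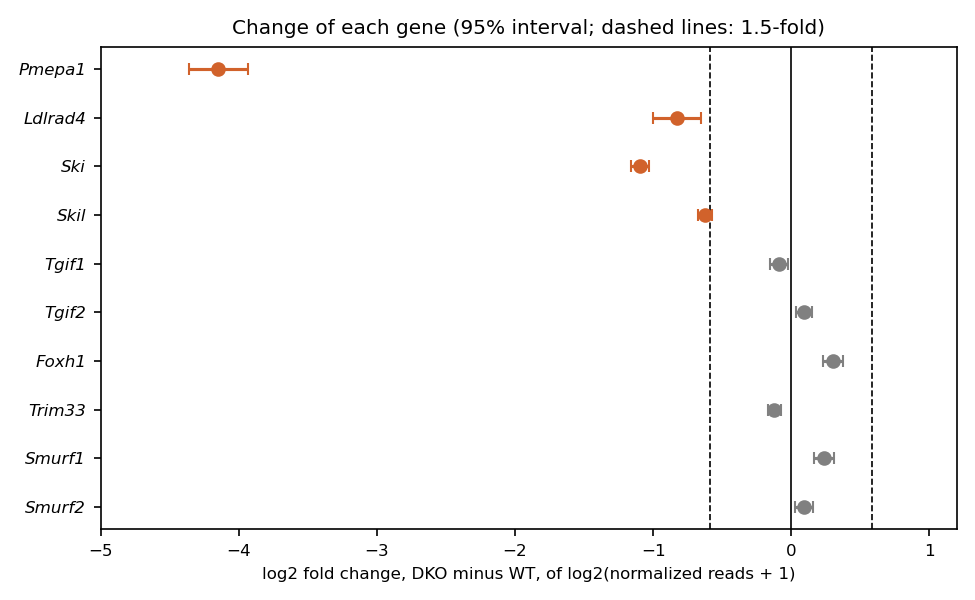
The x axis gives the log2 fold change (DKO minus WT, on log2 of normalized reads + 1) with its 95% interval for the 10 genes on the y axis, genes called changed in orange and the others in grey; dashed lines mark 1.5-fold. Pmepa1 stands apart at -4.15, the interval of Skil touches the line, and the 6 grey intervals lie inside both lines.

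The Tgif proteins are homeodomain corepressors that compete with coactivators for Smad2 and Smad3. Tgif1 (NM_001164074, chromosome 17, 70844205 to 70853532, minus strand) measured 3620, 3640 and 3825 normalized reads in WT and 3493, 3531 and 3395 in DKO. The groups were set apart by only 2.40% of the WT mean. Its log2 fold change was -0.09 ± 0.03 (limma, adjusted p = 0.0152). Tgif1 has 5 rows with different values, whose log2 fold changes ran from -0.09 to -0.06, and the least changed row (NM_001164077) had an adjusted p of 0.108. Tgif2 (NM_001291124, chromosome 2, 156839817 to 156855570, plus strand) had 3133, 3117 and 3216 in WT and 3378, 3383 and 3334 in DKO. Its log2 fold change had the opposite sign and a similar size, 0.09 ± 0.03 (adjusted p = 0.00896). For both genes the 95% interval lay well inside 1.5-fold, at -0.15 to -0.03 for Tgif1 and 0.03 to 0.15 for Tgif2. On the opposite strand, 5430405H02Rik shares 3.17 kb with Tgif2 and measured 129 ± 20.8 and 107 ± 7.37 normalized reads.

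Promoter sequence from RefSeq (GRCm38.p6, windows of 300 bases set around an annotated start site, which for Tgif2 lies inside the gene span given above) was held for 5 of the 10 genes: Ski, Tgif1, Tgif2, Smurf1 and Smurf2. Ski and Tgif2 are printed as a corepressor gene that fell and one that held. Each window was searched on both strands for the Smad half-site CAGAC, the GC-rich Smad site GGCGC and the Foxh1 site AATNCACA, and capitals mark the matches. Matches of GGCGC on opposite strands can overlap, as in GGCGCC. The Ski window is chr4:155222486-155222785 (minus strand) and the Tgif2 window is chr2:156839757-156840056 (plus strand).
Ski: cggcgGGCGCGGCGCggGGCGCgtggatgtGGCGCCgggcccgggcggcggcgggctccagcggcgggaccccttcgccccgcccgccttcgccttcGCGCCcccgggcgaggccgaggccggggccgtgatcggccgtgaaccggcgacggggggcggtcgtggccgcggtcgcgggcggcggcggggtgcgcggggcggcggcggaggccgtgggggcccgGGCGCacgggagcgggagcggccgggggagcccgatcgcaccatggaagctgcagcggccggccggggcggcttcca
Tgif2: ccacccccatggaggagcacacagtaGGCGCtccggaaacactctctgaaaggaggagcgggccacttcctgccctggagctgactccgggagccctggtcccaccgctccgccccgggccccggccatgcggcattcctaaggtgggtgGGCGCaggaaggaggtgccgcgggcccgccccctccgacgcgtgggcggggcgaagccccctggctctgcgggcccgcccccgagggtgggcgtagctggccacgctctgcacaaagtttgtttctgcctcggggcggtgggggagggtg

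The Ski window held 7 matches of GGCGC and 0 of CAGAC, with 85.3% G and C. The Tgif2 window held 2 and 0, with 72.3% G and C. Of the genes that held, Smurf1 had 4 matches of GGCGC and 2 of CAGAC, and Smurf2 had 6 and 2. Tgif1 had 5 windows, each with 0 to 2 matches of GGCGC and 0 to 2 of CAGAC, at 37.3% to 68.7% G and C. Among 32851 promoter windows, 36.9% held GGCGC, 49.6% held CAGAC and 3.60% held AATNCACA, and no window of these 5 genes held AATNCACA. The matches describe letters in a short window only.

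Foxh1 recruits Smad2/3 complexes to Nodal-responsive enhancers, and its RNA was not lost. The gene (NM_007989, chromosome 15, 76667829 to 76671614, minus strand) measured 3396, 3522 and 3836 normalized reads in WT and 4424, 4466 and 4369 in DKO. All 3 DKO libraries lay above WT, where replicate 3 was the highest. The log2 fold change was 0.30 ± 0.03 (limma, adjusted p = 1.68e-08) with an interval of 0.23 to 0.37, under the 1.5-fold threshold and the most positive of the 10. Kifc2 on the opposite strand shares 0.368 kb with the annotated gene and measured only 74.0 ± 11.5 and 57.3 ± 4.42 normalized reads.

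Genes known to depend on Foxh1 differed among themselves. Lefty1, a secreted Nodal antagonist, measured 14273 ± 252 in WT and 94.9 ± 9.84 in DKO, and Lefty2 measured 4851 ± 64.8 and 32.1 ± 6.03 (SD, n = 3 each). Nodal, which feeds back on its own enhancer through Foxh1, had a log2 change of 0.29 ± 0.04 (limma, adjusted p = 9.13e-08). Of 7 such genes, 6 were tested, 3 were lower (Lefty1, Lefty2 and the low-level Mixl1) and 0 higher. Of all entries, 7.98% were lower and 7.41% higher. The median log2 fold change of the 6 was -0.92, which falls between Mixl1 and Foxa2, both at low levels. Gsc, Foxa2 and Lhx1 were near the limit of detection in both genotypes, at group means between 2.12 and 14.8 normalized reads.

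The ubiquitin ligases, which mark Smads, receptors or Smad partners for removal or disassembly, also held. Trim33, which binds phosphorylated Smad2/3 and can ubiquitinate Smad4, had the next highest group mean of reads after Skil. Its row (NM_001079830, gene at chromosome 3, 103279293 to 103358770, plus strand) had 12895, 13196 and 13250 normalized reads in WT and 11915, 12142 and 12069 in DKO. The difference was 8.18% of the WT level, larger than the replicate spread, with a log2 change of -0.12 ± 0.02 (limma, adjusted p = 5.97e-05). Smurf1 (NM_001038627, chromosome 5, 144876495 to 144965899, minus strand), which acts mainly on Bmp Smads and on receptors, had 1694, 1710 and 1812 in WT and 2058, 2078 and 2008 in DKO. DKO libraries were all above WT and the log2 fold change was 0.24 ± 0.04 (adjusted p = 2.46e-06). Smurf2 (NM_025481, chromosome 11, 106820061 to 106920747, minus strand), which targets Smads and receptors with the inhibitory Smads as adaptors, had 2569, 2589 and 2509 in WT and 2801, 2708 and 2671 in DKO. The log2 fold change was 0.09 ± 0.03 (adjusted p = 0.0151). Mir7039 lies within Smurf1 on the same strand and shares 0.085 kb with it. Its row held 24.1 ± 5.13 normalized reads in WT and 27.4 ± 2.22 in DKO, which cannot be told apart from Smurf1 reads. In none of the 3 ligase genes did the 95% interval reach 1.5-fold.

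Close relatives were then compared inside each library, where depth cancels. The ratio of Skil to Ski was 5.10, 5.16 and 4.99 in WT and 7.38, 6.97 and 6.84 in DKO. Ski thus lost more of its level than Skil, by 0.47 on the log2 scale. The ratio of Ldlrad4 to Pmepa1 was 0.461, 0.486 and 0.464 in WT and 4.53, 5.35 and 4.59 in DKO. The order of both membrane inhibitors by reads, which are not scaled for length, was thereby turned over, a difference of 3.32 on the log2 scale. Per kilobase of the annotated gene, Pmepa1 stayed above Ldlrad4 in DKO, at 0.678 against 0.518. That order rests on the gene spans used, 52.3 kb for Pmepa1 and 328 kb for Ldlrad4. Tgif2 to Tgif1 went from 0.854 ± 0.0125 to 0.969 ± 0.0122 and Smurf2 to Smurf1 from 1.47 ± 0.0754 to 1.33 ± 0.0289 (SD, n = 3 each). Groups did not overlap for any of the 4 ratios, nor for any of their genes taken singly. Of all single entries, 60.3% did not overlap. An exact two-sided permutation test gave p = 0.1 for each ratio, and 0.1 after adjustment over 4 ratios. This is the smallest value that 3 against 3 libraries can give.

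**Figure D3:**
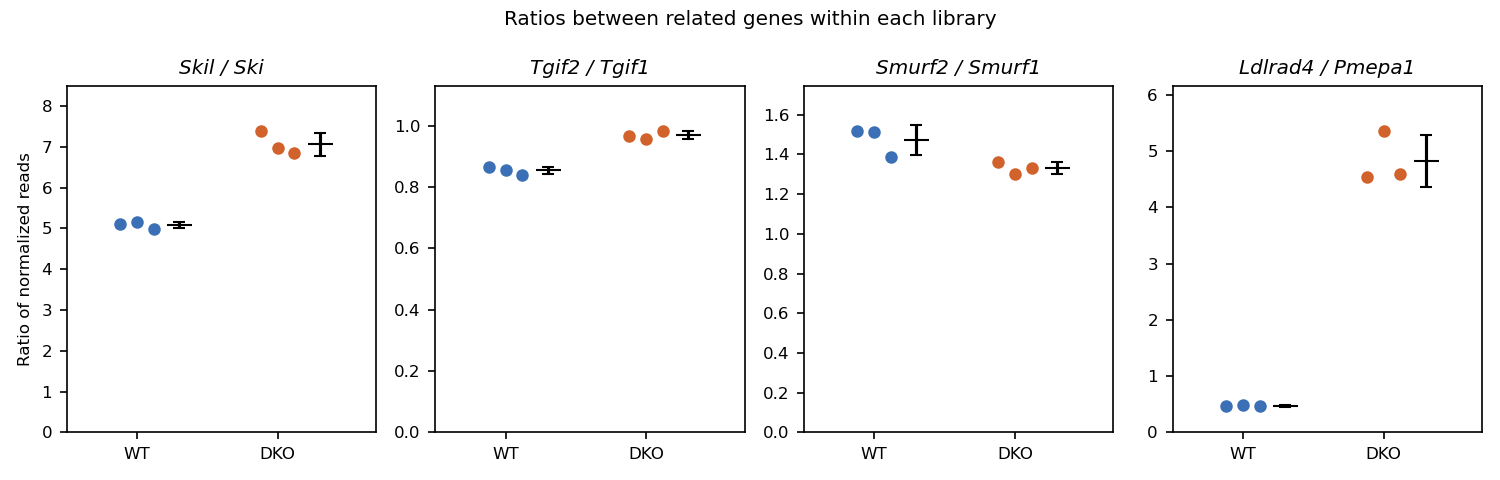
Ratios of normalized reads between related genes (y axis, linear, from 0) within each of the 3 WT and 3 DKO libraries; the bar beside the points gives the mean and SD. The ratio of Ldlrad4 to Pmepa1 moves from 0.470 to 4.82 and that of Skil to Ski from 5.08 to 7.06, while the other pairs shift less.

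Levels of different genes were set side by side per kilobase of the annotated gene, introns included. The body over which the authors counted each row may differ from this span. In WT the order was Foxh1 at 947 ± 59.9 normalized reads per kb, Skil at 682 ± 6.70, Tgif1 at 396 ± 12.1, Tgif2 at 200.3 ± 3.36 and Trim33 at 165 ± 2.41. Much lower stood Ski at 54.6 ± 0.524, Smurf2 at 25.4 ± 0.412, Smurf1 at 19.4 ± 0.716, Pmepa1 at 12.3 ± 0.623 and Ldlrad4 at 0.919 ± 0.0239 (SD, n = 3). The libraries of neighbours in this order did not overlap. In DKO the order was the same except that Smurf2, at 27.1 ± 0.664, stood above Ski, at 25.5 ± 0.537, again with no overlap. Pmepa1 dropped to 0.678 ± 0.0869 per kb, close to Ldlrad4 at 0.518 ± 0.0451. Short genes with little intron, such as Foxh1 with 3.79 kb, gain on this scale.

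Other genes of the pathway placed the split in context. Of 5 tested feedback inhibitors outside the 10 genes, 3 were lower in DKO and 0 higher, beside 7.98% and 7.41% of all entries. This list was chosen with earlier results of these data known. Besides Lefty1 and Lefty2, counted above as Foxh1 targets too, the lower genes included Smad7, which blocks receptor access. Smad7 had a log2 change of -2.09 ± 0.05 (limma, adjusted p = 6.23e-24). Bambi, a decoy receptor, had a log2 fold change of -0.20 ± 0.06. Smad6, the inhibitor tied to Bmp signals, went the other way with 0.56 ± 0.08 (adjusted p = 1.67e-06) and passed the 1.5-fold threshold when WT replicate 2 or DKO replicate 1 was left out. Cer1 was too low to test.

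Nuclear coregulators that Smads, Ski or Tgif proteins recruit were not called. None of 16 was lower or higher (limma), beside 15.4% of all entries changed. At an adjusted p under 0.05 alone 10 of the 16 passed, as did 55.1% of all entries. The median log2 fold change of the 16 was -0.06, with a range of -0.31 to 0.35. The lowest was Ctbp2, a corepressor bound by Tgif1, and the highest was Ncor1, a scaffold for histone deacetylases that Ski binds. The coactivator Ep300 measured 3711 ± 143 and 3436 ± 153, and the Trim33 relative Trim28 measured 50372 ± 1751 and 53663 ± 222. Among 19 ubiquitin ligases, deubiquitinases, phosphatases and adaptors of the pathway, 1 was higher and 0 lower, with a median of 0.06. That 1 was Rnf165, a low-level relative of Rnf111, at 0.59 ± 0.09, whose call was lost without WT replicate 2 or DKO replicate 1. Rnf111 itself, the ligase Arkadia that degrades Ski and Skil protein, measured 2446 ± 93.4 and 2543 ± 36.8, with 0.06 ± 0.03 on the log2 scale (limma, adjusted p = 0.157). Usp9x, which removes the ubiquitin that Trim33 places on Smad4, had a log2 fold change of 0.46 ± 0.02 (adjusted p = 4.58e-16), short of 1.5-fold. Of the 5 Smad transducers only Smad3 was called, and Smad4 had a log2 fold change of 0.14 ± 0.03.

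**Figure D4:**
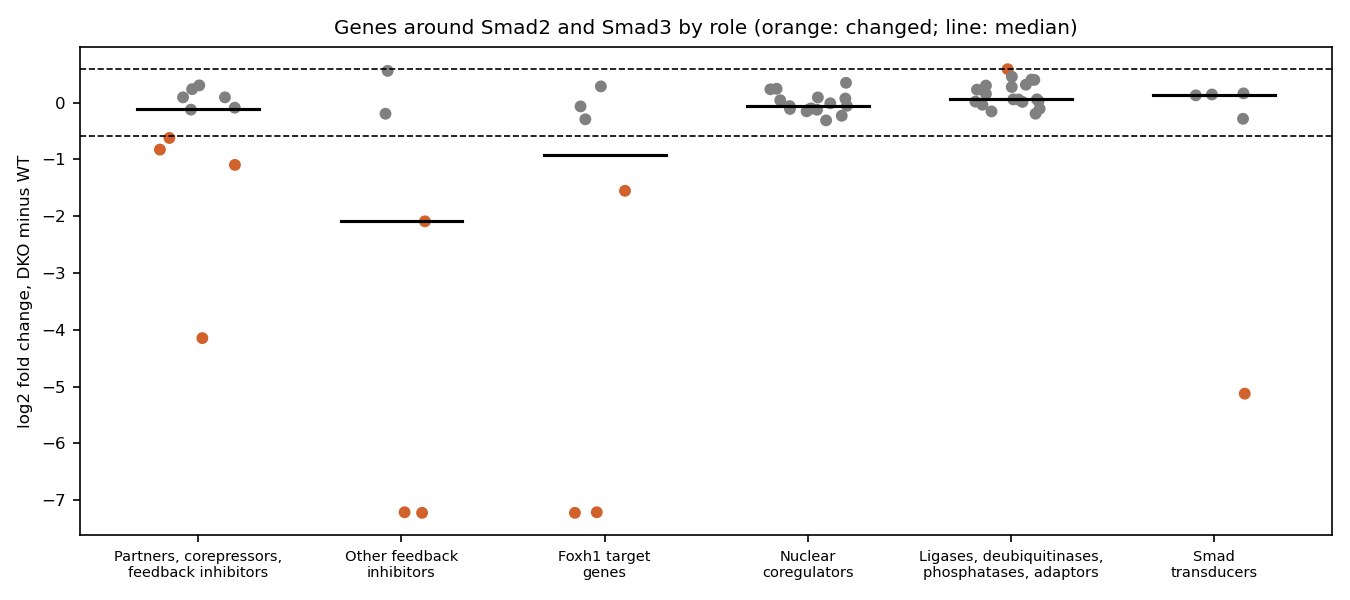
Each point is a tested gene, placed by its log2 fold change (y axis, DKO minus WT) within its role (x axis), orange where called changed; horizontal bars are medians and dashed lines mark 1.5-fold. Coregulators, ligases, deubiquitinases and phosphatases lie within the dashed lines apart from 1 point (Rnf165) just past the upper line. Other feedback inhibitors and Foxh1 targets reach down to -7.22, and Lefty1 and Lefty2 are plotted under both.

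The genes whose 6 library values lay nearest to those of the extreme members were looked up among 11929 others whose mean reached 100 normalized reads. Nearest to Pmepa1 were Gbp2, Cacna1s and Chst15, at root-mean-square distances of 0.117, 0.126 and 0.159 on the log2 scale. Gbp2 dropped from 765 to 41.8 normalized reads and Chst15 from 1828 to 115. Nearest to Foxh1 were Fstl1, Xpnpep1 and Ndufa11, at distances of 0.0180, 0.0207 and 0.0238. With 6 libraries in 2 groups, this likeness describes a change of similar size.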

How the data were processed

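Total RNA of 3 WT and 3 DKO EpiLC differentiations was depleted of ribosomal RNA and sequenced from stranded libraries. The authors filtered out ribosomal reads (Bowtie2), aligned the rest to mm10 (STAR), dropped duplicates (SAMtools) and counted reads over refGene gene bodies. Tool versions, and whether counting used strand, were not given in the sources used here. The values deposited are a signal: each row's reads over a size factor for its library (1.76 to 1.93), with no scaling for length. The other deposited table holds the authors' own DESeq2 comparison (fold changes and p-values) and was not used. Dividing by the value of 1 read gave whole numbers (within 0.05) for 100% of values. Rows without a symbol (138, 0.517% of reads) were left out.

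Rows passing filterByExpr (edgeR 4.0.16) on recovered reads were fitted with limma 3.58.1 (R 4.3.3, variance trend) on log2(normalized reads + 1), which understates changes of low genes, and p-values were adjusted over 25361 rows. The fit was tested on simulated data. Count tests of edgeR and DESeq2 1.42.0, pseudocounts of 0.1 and 10, other scalings, a replicate block, other thresholds and leaving out each library were alternatives. Ratios of related genes were tested by exact permutation. Intervals cover replicate spread, and since no molecular identifiers were used, reads are not independent molecules. Replicate libraries differed by 3.44 to 5.64 times the sampling variance, so none was counted as a repeat of another. Named genes are the 10 members, Smad2, Smad3, members of the pathway and marker lists, the genes nearest to the most lowered and the most raised member, and genes with deposited rows that overlap a member. The latter (Kifc2, 5430405H02Rik, Mir7039 and Fam210a) were outside the rule and were added after the values were seen. Members and lists were chosen with earlier results of these data known. Gene positions and promoters are RefSeq's for GRCm38.p6, and strands and overlaps are from GENCODE vM21 of the same assembly.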

Additional observations from a re-analysis of the deposited data

How the results depend on the processing

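The log2 fold changes of the 10 genes were each recomputed under 17 alternatives, and none turned direction. For 8 genes the call also stayed on its side. The rule of an adjusted p alone was not among these 17, and under it all 10 genes were called, 6 lower and 4 higher. Skil ran from -0.64 to -0.60 and Ldlrad4 from -0.89 to -0.77, and both lost their calls only in the test against 1.5-fold, which left 2 genes called lower instead of 4. Pmepa1 ran from -4.24 to -3.85 and Ski from -1.11 to -1.08. With edgeR and with DESeq2 on recovered reads the count of lower genes was 4 and of higher genes 0.

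Of all entries, 3904 were called, 1735 in the test against 1.5-fold and 13977 at an adjusted p alone, as the construction of these tests implies, and 3825 to 3889 when 1 library was left out. At an adjusted p alone, 4 of the 10 genes were higher, 5 nuclear coregulators were lower and 5 higher, and 3 ligases, deubiquitinases, phosphatases or adaptors were lower and 9 higher. The same rule called 1 other feedback inhibitor, 1 Foxh1 target, 3 Smad transducers, 1 epiblast marker and 1 fibroblast marker higher, and 2 Smad transducers and 4 epiblast markers lower. In the test against 1.5-fold, 1 epiblast marker was lower and 0 endoderm markers were higher. Rnf165 was the higher ligase in the report, and 0 were higher with a pseudocount of 10, with DESeq2 and in the test against 1.5-fold. Across fits without 1 library, 4 of the 10 genes were lower and 0 higher each time, 0 to 1 ligases and 0 to 1 other feedback inhibitors were higher, 2 to 3 fibroblast markers were lower, and endoderm markers were 0 to 1 lower (1 without DKO replicate 2) and 1 to 2 higher (2 without WT replicate 2 or 3). The difference in the ratio of Ldlrad4 to Pmepa1 was 3.05 with a pseudocount of 10 and 3.25 to 3.36 without 1 library, and that of Skil to Ski was 0.44 to 0.50.

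WT and DKO libraries with the same number had deviations correlated at 0.00881, -0.0293 and 0.0365 over 11930 genes. WT replicate 2 correlated best with DKO replicate 1, at only 0.073. No pairing by number was visible, but such small values cannot tell whether differentiations with the same number were run together. With the replicate block 3913 entries were called, and no call among the 10 genes changed. Depth limits Gsc, Lhx1 and Cer1, with few reads in either genotype.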
